A study of Apis mellifera with 96 samples.

Results

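Jhe encodes juvenile hormone esterase, and its transcript was followed in whole worker bees of Apis mellifera by role, day of capture, origin colony and single library. The gene was taken by name as the row Jhe, 1 of 9935 genes in the deposited count table. All workers were WT and untreated. They were put as 1-day-old adults into nuclear hives that already had queens and honey frames, and nurses and foragers were caught there on day 7 and on day 26 and frozen. They came from 6 origin colonies, numbered 107, 109, 115, 122, 127 and 137, so that colony, role and day form 24 groups: nurses and foragers of each colony on day 7, and nurses and foragers of each colony on day 26. Of 93 libraries with a column in the table, 92 were used, with 22 libraries of nurses and 22 of foragers from day 7 and 24 of each from day 26. Most groups held 4 libraries (21 of 24), colony 107 foragers and colony 127 foragers of day 7 held 3, and colony 127 nurses of day 7 held 2. How many bees went into a library is not in the labels, and p-values therefore measure only the spread between these libraries. Age, day of capture and time spent in the hive cannot be told apart in this design.

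Juvenile hormone is a lipid-like hormone made by the corpora allata, a pair of glands behind the insect brain. Juvenile hormone esterase cleaves its methyl ester and so inactivates it, and the fat body and hemolymph are its usual sites in insects. In honey bee workers the hormone's titre is known to be low in nurses, which feed the brood, and high in foragers, which collect food outside the hive. The yolk precursor vitellogenin, the product of Vg in the fat body, is known for the opposite course, and the hormone and vitellogenin are described as repressing each other in workers.

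The libraries held 197805 to 2300891 counts on genes, and Jhe received 16 to 676 counts per library, with a median of 108. Counting error alone gives a relative error of 25.0% at 16 counts and 9.62% at 108 counts, and 6 libraries had fewer than 30 Jhe counts. Levels are given as CPM, that is, counts scaled by TMM factors to a common library total. Reads left unaligned made up 65.6% ± 3.01 of all reads in nurses and 69.9% ± 4.12 in foragers (SD, n = 46 libraries each), so this share moved with role, and the fit with it as a covariate is given beside the results it touches. Of 13 mitochondrial genes, those with a median count of at least 50 were compared by relative counts with the median of each colony. In 7 libraries, called those of departing mitochondrial counts, the profile lay nearer another colony than its own, by a distance above 0.5. They were 2 of colony 115 foragers of day 26 and 1 of colony 115 nurses of day 7. From day 7, colonies 127, 109 and 122 had 1 forager library each, and colony 127 had another from day 26. Whether the colony labels of these libraries are right was not tested. Of 133 pairs of libraries within groups, 2 were close, with a mean chi-square per gene under 4. Their values were 1.62, for libraries of different replicate numbers, and 2.03, for libraries of the same number, and the next pair had 4.05. The median was 17.9 for pairs of different numbers and 16.3 for pairs of the same number. Each library of the 2 close pairs was counted as a sample of its own.

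Jhe was higher in nurses than in foragers on both days. Nurses of day 7 had 230 ± 151 CPM (SD, n = 22), with a lowest library of 32.4, a median of 180 and a highest of 531 CPM. Nurses of day 26 had 149 ± 90.0 CPM (SD, n = 24), from 33.4 over a median of 117 to 391 CPM. Foragers of day 7 had 74.8 ± 41.2 CPM (SD, n = 22), from 19.7 over a median of 62.5 to 168 CPM. Foragers of day 26 had 66.2 ± 47.3 CPM (SD, n = 24), from 10.5 over a median of 60.9 to 256 CPM. The ranges overlapped: 6 of 46 nurse libraries lay below the forager median of 62.0 CPM, and 2 of 46 forager libraries lay above the nurse median of 148 CPM. At the upper end, 10 nurse libraries exceeded the highest forager library, and 22 exceeded the second highest, at 168 CPM.

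**Figure D1:**
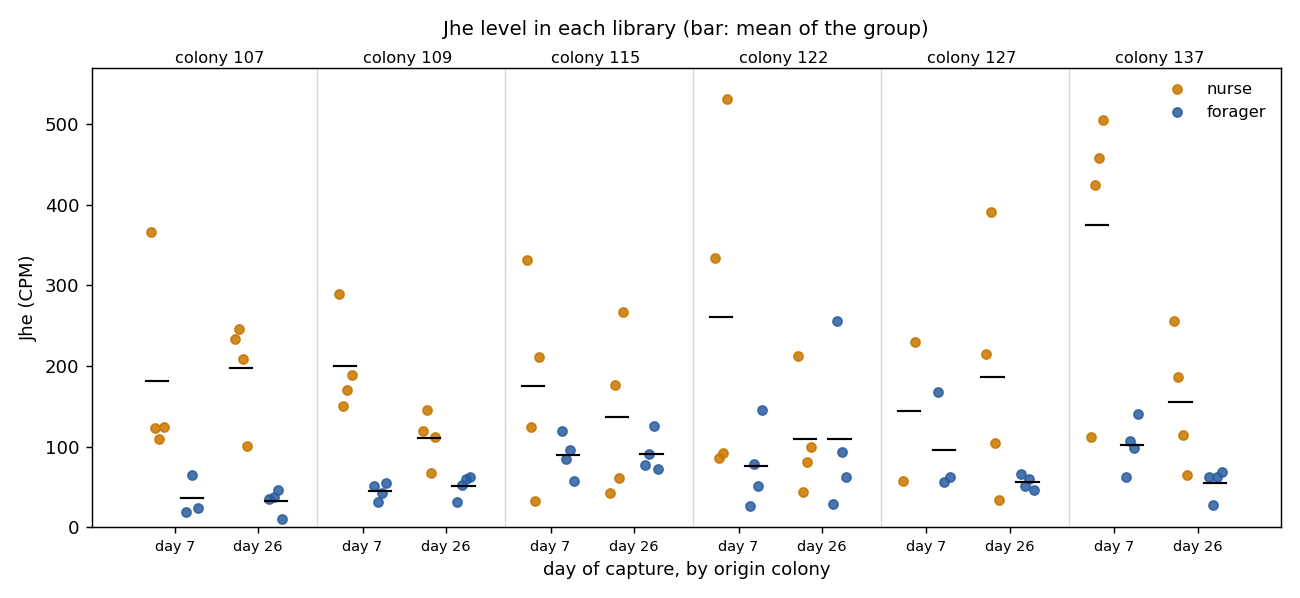
Jhe level (y axis, CPM) in each of the 92 libraries, by origin colony and day of capture (x axis), with nurses in orange, foragers in blue and a black bar at the mean of each group. Nurse libraries reach 531 CPM, while a single forager library, from colony 122 on day 26 at 256 CPM, lies above 168 CPM.

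In edgeR's quasi-likelihood test over all 6753 genes with sufficient counts, Jhe was 2.72-fold lower in foragers, a log2 difference of -1.44 ± 0.18 (SE, 95% interval -1.80 to -1.08, Benjamini-Hochberg adjusted p = 1.98e-09). This comparison called 30.1% of the genes tested at an adjusted p under 0.05, and 14.8% as lower in foragers. Jhe stood at place 122 by p-value, and 46 genes had a more negative log2 difference, of which 45 passed. Whole bees were extracted, so fewer cells that make the transcript and less of it per cell cannot be told apart. A permutation of role labels within colony and day (100000 resamples, two-sided) gave a difference in log2 CPM of -1.29 with p = 1e-05, the smallest p these resamples can give. The mean of log2 CPM was lower in foragers in all 12 pairings of colony and day, while in plain CPM colony 122 on day 26 had 110 ± 101 (SD, n = 4) in its foragers against 109 ± 72.6 (SD, n = 4) in its nurses. With each library left out in turn the difference in log2 CPM ranged from -1.37 to -1.20, and both ends came from the 2 libraries of colony 127 nurses of day 7. Without the libraries of replicate number 1 it was -0.97 (permutation p = 9e-05), and the mean was higher in foragers in 2 of 11 pairings. On library totals without TMM factors it was -1.06 (permutation p = 1e-05). With the unaligned share as a covariate the fitted difference was -1.15 ± 0.26 (adjusted p = 0.00146), and without the 7 libraries of departing mitochondrial counts it was -1.53 ± 0.20 (adjusted p = 1.14e-08).

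The role difference passed on each day by itself. On day 7 Jhe was 3.10-fold lower in foragers (log2 -1.63 ± 0.27 SE, edgeR adjusted p = 2.63e-06), in a comparison that called 20.2% of genes. On day 26 it was 2.38-fold lower (-1.25 ± 0.25, edgeR adjusted p = 0.000149), where 17.7% of genes were called. The day 26 call was lost without the libraries numbered 1 (-0.68, edgeR adjusted p = 0.118) and with the unaligned share as a covariate (-0.91, adjusted p = 0.112), though the direction stayed. The role difference at day 26 was not distinguishable from that at day 7, with an interaction of 0.38 ± 0.36 (95% interval -0.33 to 1.09, edgeR adjusted p = 0.723) in a test that called 0.829% of genes.

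Between days, Jhe did not pass the test in either role. Over both roles it differed by -0.35 ± 0.18 on the log2 scale for day 26 against day 7 (95% interval -0.70 to 0.01, edgeR adjusted p = 0.149), while 26.1% of genes were called, 12.4% as lower and 13.7% as higher on day 26. In nurses the difference was -0.54 ± 0.25 (unadjusted p = 0.0359, edgeR adjusted p = 0.158, 13.4% of genes called), and it passed without the libraries numbered 1 (-0.88, edgeR adjusted p = 0.0278). In foragers it was -0.16 ± 0.26 (edgeR adjusted p = 0.735, 18.9% of genes called), and its sign turned without the libraries numbered 3 (0.05), without the 7 libraries of departing mitochondrial counts (0.04) and with the unaligned share as a covariate (0.03). A two-sided permutation test of the day labels within colony and role gave -0.34 (p = 0.0831), and the mean of log2 CPM was higher on day 26 in 5 of 12 pairings. Without the libraries numbered 1 this permutation test passed (-0.42, p = 0.0366). Setting the older nurses against the younger foragers, role and day opposed each other: nurses of day 26 were 2.14-fold higher than foragers of day 7 (1.09 ± 0.26, edgeR adjusted p = 0.000852, 23.3% of genes called). Without the libraries numbered 1 this fell to 0.69 and no longer passed (edgeR adjusted p = 0.0979).

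**Figure D2:**
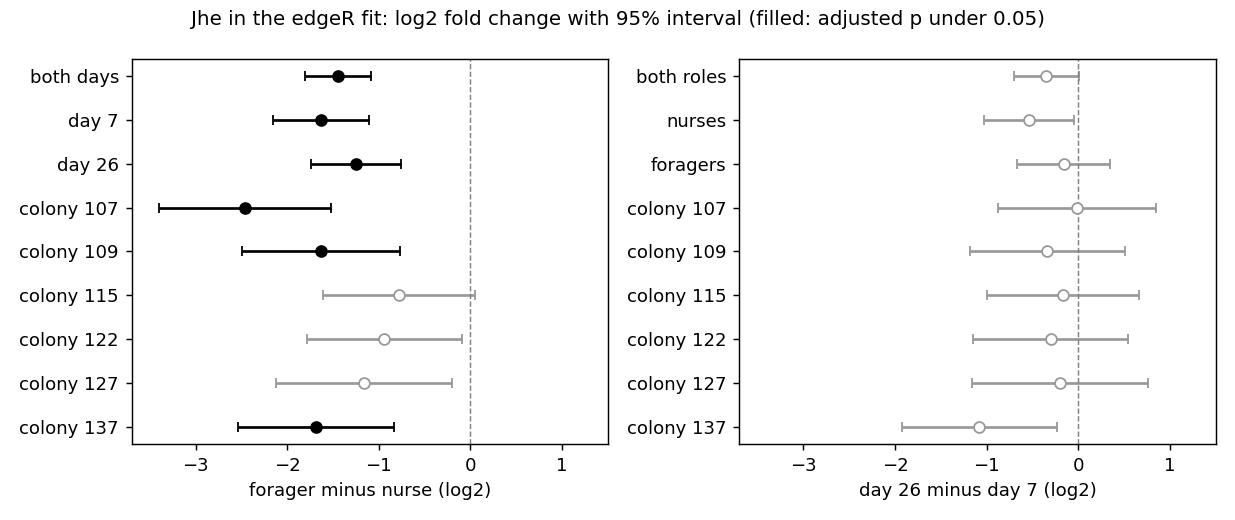
Jhe differences on the log2 scale (x axes) with 95% intervals, for foragers against nurses (left) and for day 26 against day 7 (right), in all libraries, in parts of them and by colony (y axes), where filled black points have an edgeR adjusted p under 0.05. Every role difference lies below 0, from -2.46 in colony 107 to -0.78 in colony 115, and no day difference is filled.

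The fitted role difference was negative in each of the 6 colonies, as it was for 12.4% of genes, but the libraries of the roles were apart in some colonies and mixed in others. In colony 107, nurses of day 7 had 366, 123, 110 and 124 CPM and foragers of day 7 had 19.7, 65.3 and 24.1 CPM. On day 26 its nurses had 234, 246, 208 and 101 CPM and its foragers 35.5, 38.2, 46.5 and 10.5 CPM. Every nurse library of colony 107 lay above every forager library, and this colony held both the lowest group, its day 26 foragers at 32.7 ± 15.5 CPM (SD, n = 4), and the lowest single library. Its fitted difference was 5.50-fold (-2.46 ± 0.48, edgeR adjusted p = 0.000142, 14.7% of genes called).

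Colony 109 also showed no overlap. Its nurses had 289, 150, 171 and 188 CPM on day 7 and 119, 145, 67.9 and 112 CPM on day 26. Its foragers had 51.5, 31.6, 42.2 and 55.5 CPM on day 7 and 31.6, 52.8, 59.6 and 62.0 CPM on day 26. The forager libraries of this colony were close together, and the nearest nurse library, from day 26, had 67.9 CPM against a highest forager of 62.0 CPM. The difference was 3.10-fold (-1.63 ± 0.44, edgeR adjusted p = 0.0179, 5.61% of genes called), and it lost its call in 5 of 23 alternative settings. Over the 12 pairings of colony and day, 4 had every nurse library above every forager library, those of colonies 107 and 109. Over all genes, 4.63% of such pairings were separated in this direction.

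Colony 137 held the highest group. Its nurses of day 7 had 113, 425, 458 and 506 CPM, and its foragers of day 7 had 62.9, 107, 98.7 and 140 CPM. On day 26 its nurses had 256, 187, 115 and 64.6 CPM and its foragers 62.6, 27.6, 62.3 and 69.0 CPM. A single nurse library on each day fell among the foragers, and 93.8% of the nurse and forager pairs within day had the nurse higher. The role difference was 3.21-fold (-1.68 ± 0.44, edgeR adjusted p = 0.0100, 6.13% of genes called), and it lost its call in 3 of 23 alternative settings. Its day difference, -1.08 ± 0.43, was the most negative of the colonies and did not pass (edgeR adjusted p = 0.139). The day differences of the other colonies lay between -0.34 and -0.01 and did not pass either. These day tests called 2.18% of genes in colony 107, 7.11% in colony 109, 0.963% in colony 115, 5.02% in colony 122, 1.97% in colony 127 and 5.85% in colony 137.

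The other 3 colonies did not pass by themselves. In colony 115, nurses had 332, 124, 32.4 and 212 CPM on day 7 and 42.5, 177, 61.7 and 267 CPM on day 26. Its foragers had 120, 84.9, 95.8 and 57.2 CPM on day 7 and 77.0, 90.7, 125 and 72.1 CPM on day 26. Here the nurses spread below and above a narrow band of foragers, and the nurse was higher in 62.5% of pairs. The difference was -0.78 ± 0.42 (edgeR adjusted p = 0.488, 0.829% of genes called).

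In colony 122, nurses had 335, 86.4, 92.4 and 531 CPM on day 7 and 212, 43.5, 81.1 and 99.4 CPM on day 26. Its foragers had 26.4, 79.2, 51.1 and 146 CPM on day 7 and 29.0, 256, 92.9 and 62.4 CPM on day 26. Both the highest nurse library and the highest forager library of the study were from this colony. The difference was -0.94 ± 0.43 (edgeR adjusted p = 0.334, 0.163% of genes called), and without the forager library at 256 CPM it was -1.36 ± 0.45 (edgeR adjusted p = 0.0871).

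In colony 127, nurses had 57.8 and 230 CPM on day 7 and 214, 391, 105 and 33.4 CPM on day 26. Its foragers had 168, 56.5 and 62.0 CPM on day 7 and 66.8, 51.1, 59.8 and 46.6 CPM on day 26. The highest of these foragers, at 168 CPM, was 1 of the 7 libraries of departing mitochondrial counts. The role difference was -1.16 ± 0.49 (edgeR adjusted p = 0.401, 0.237% of genes called), and it was -1.52 ± 0.56 without those libraries (edgeR adjusted p = 0.449). Another of the 7 libraries, from colony 122 foragers of day 7, had 146 CPM against 26.4 to 79.2 CPM in the rest of its group, from 29 counts.

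The differences among colonies themselves were not resolved. The fitted colony means of Jhe spanned 0.74 on the log2 scale (edgeR adjusted p = 0.258, 17.8% of genes called). The role differences spanned 1.68 between colony 107 and colony 115 (unadjusted p = 0.101, edgeR adjusted p = 0.700). That colony by role test called 0.0% of genes, with 512 genes at an unadjusted p under 0.05 and 5 genes called by DESeq2. On simulated counts this test recovered 8% of 200 genes changed 1.5-fold in foragers of a single colony, and 65.5% at 2-fold. The day differences spanned 1.07 (edgeR adjusted p = 0.885, 0.0444% of genes called). When the 24 groups were ordered by mean, from 32.7 CPM in colony 107 foragers of day 26 to 375 ± 178 CPM (SD, n = 4) in colony 137 nurses of day 7, every group overlapped the next in the order. The lowest 11 places were held by foragers and the highest 11 by nurses. Of the variation in log2 CPM among libraries, role took 31.9%, colony 4.48%, day 2.17%, colony by role 8.47% and colony by day 2.49%, while 46.2% lay between libraries of the same group.

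The spread within groups followed Vg more closely than any other gene. Over the 92 libraries, Pearson's r between log2 CPM of Jhe and of each of 6746 other genes with a mean of at least 5 CPM had a median of -0.02. Vg ranked first with r = 0.91, and first by Spearman's rho as well (0.89). After each group's mean was subtracted Vg again ranked first, with r = 0.87. These points share libraries, depth and scaling, and the values are descriptions. Within groups, log2 Jhe changed by 0.53 per unit of log2 Vg (0.53 in nurses and 0.55 in foragers).

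Vg itself had a median of 1420 CPM in nurses of day 7 (109 to 7928), 686 CPM in nurses of day 26 (73.8 to 5373), 167 CPM in foragers of day 7 (45.1 to 430) and 120 CPM in foragers of day 26 (40.6 to 2704). Within nurses of day 7 the relation with Jhe was r = 0.96 (rho = 0.95, n = 22), and within nurses of day 26 it was 0.89 (rho = 0.88, n = 24). Within foragers it was 0.74 on day 7 (rho = 0.67, n = 22) and 0.77 on day 26 (rho = 0.64, n = 24). The permutation p adjusted over the 20 relations computed was 6.67e-05 for r in both nurse sets, 0.00044 in foragers of day 7 and 0.0001 in foragers of day 26. For rho the adjusted permutation p was 0.0001 in both nurse sets and 0.00216 in both forager sets. Without the 2 libraries farthest from the median of Vg, r was 0.95, 0.85, 0.61 and 0.62 in that order, and within colonies it was 0.96, 0.91, 0.76 and 0.71. The relation therefore held in each role on each day and did not rest on the 2 farthest libraries. By rho it missed the threshold in foragers of day 26 without the libraries numbered 2 (adjusted permutation p = 0.0509) and in foragers of day 7 without those numbered 3 (0.0533).

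**Figure D3:**
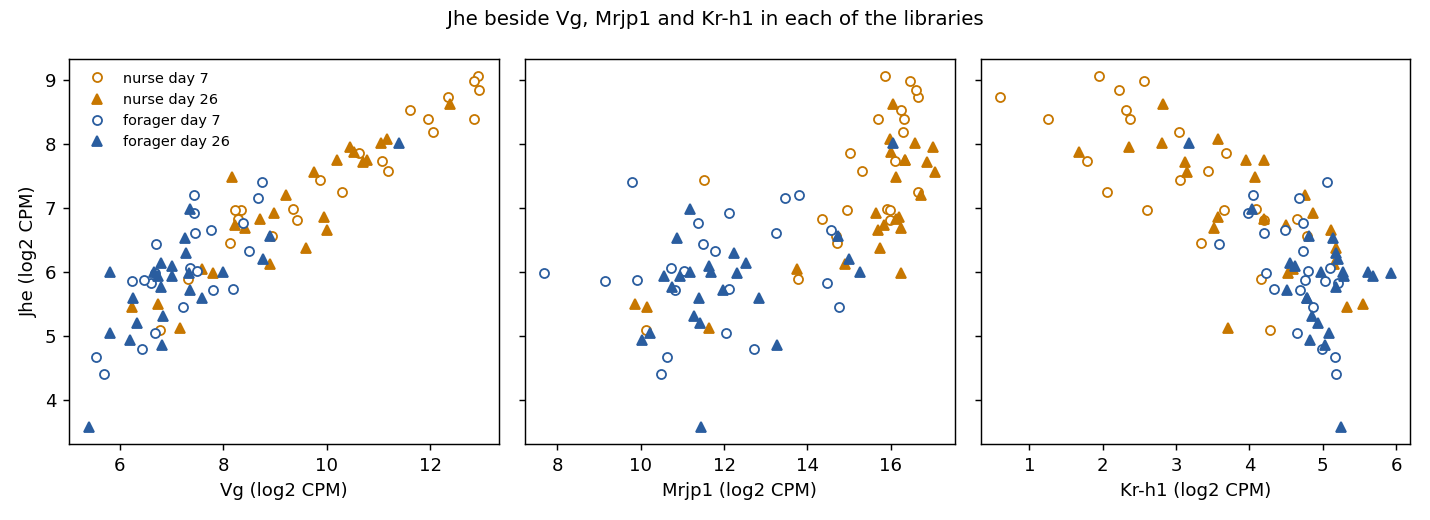
Log2 CPM of Jhe (y axis) against log2 CPM of Vg, Mrjp1 and Kr-h1 (x axes) in each of the 92 libraries, coloured by role and with circles for day 7 and triangles for day 26. Nurses and foragers lie along 1 band against Vg (r = 0.91 over all libraries), mostly lie apart but overlap against Mrjp1, and fall from upper left to lower right against Kr-h1 (r = -0.77).

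Single libraries at the ends of the range show the same pairing. The 4 nurse libraries lowest in Jhe, at 32.4, 33.4, 42.5 and 43.5 CPM, had 109, 142, 73.8 and 105 CPM of Vg. All 4 Vg levels were within the range of the forager libraries. The same libraries, of day 7 for the first and day 26 for the others, were also low in Mrjp1 (1112, 3198, 1138 and 927 CPM). Nurse medians of Mrjp1 were 60784 CPM on day 7 and 69610 CPM on day 26. Their Hbg3 levels were 1104, 3317, 3218 and 814 CPM, against nurse medians of 235 CPM (day 7) and 815 CPM (day 26). Whether their low Jhe goes with Vg alone was not tested. The 4 nurse libraries highest in Jhe, at 531, 506, 458 and 425 CPM, had 7725, 7324, 7928 and 5182 CPM of Vg. The forager library with 256 CPM of Jhe, from colony 122 on day 26, also had the highest forager level of Vg, 2704 CPM, and of the royal jelly gene Mrjp1, 68352 CPM. With this library left out, the role difference of Jhe over all colonies was -1.51 ± 0.18 (edgeR adjusted p = 2.64e-10).

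The role difference was smaller in Jhe than in Vg. In log2 CPM, averaged over pairings of colony and day, Vg differed by -2.57 and Jhe by -1.29 between foragers and nurses. The log2 difference between Jhe and Vg was 1.28 higher in foragers (permutation within colony and day, p adjusted over 6 such tests = 2e-05, higher in 12 of 12 pairings). Multiplying the Vg difference by the within-group slope of 0.53, taken from the same libraries, gives -1.37. This is more negative than the Jhe difference of -1.29, and the Jhe difference minus the product is 0.08 on the log2 scale. The same product for the day difference is -0.26, and the Jhe day difference minus this product is -0.07. These products are descriptions and were not tested. Against days, the difference between Jhe and Vg did not pass (0.16, adjusted permutation p = 0.355).

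Mrjp1, a major royal jelly protein gene of the nurses' hypopharyngeal glands, followed Jhe less closely. It ranked 67th among the genes most like Jhe over libraries (r = 0.70) and 68th within groups (r = 0.59). The relation was r = 0.68 in nurses of day 7 (rho = 0.66, adjusted permutation p = 0.00102 and 0.00216) and 0.75 in nurses of day 26 (rho = 0.64, adjusted permutation p = 6.67e-05 and 0.00228). Without the 2 farthest libraries these were 0.72 and 0.71, and within colonies 0.67 and 0.75. In foragers of day 7 it was 0.16 (adjusted permutation p = 0.537). In foragers of day 26 it was 0.46 by r (adjusted permutation p = 0.0328), but 0.35 by rho (0.117) and 0.24 without the 2 farthest libraries. The log2 difference between Jhe and Mrjp1 was 2.14 higher in foragers (adjusted permutation p = 2e-05, 11 of 12 pairings). It was 0.71 lower on day 26, a log2 change of -0.71 (adjusted permutation p = 0.0315, lower in 11 of 12 pairings), and this did not pass without the libraries numbered 1 (-0.76, adjusted permutation p = 0.0992) or 3 (-0.48, 0.178).

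Kr-h1, a transcription factor gene induced by juvenile hormone, was the second most opposite of the 6746 genes over libraries (r = -0.77, rho = -0.74), and its r within groups was -0.63. It had a median of 6.75 CPM in nurses of day 7, 16.1 in nurses of day 26, 25.0 in foragers of day 7 and 30.6 in foragers of day 26, the reverse of the order of Jhe. Its lowest library in nurses of day 7 had 0 CPM. Within nurses r was -0.74 on day 7 (rho = -0.77, adjusted permutation p = 0.0006 and 0.00045) and -0.69 on day 26 (rho = -0.73, adjusted permutation p = 0.0008 and 0.00045). Within colonies these values were -0.73 and -0.72, and without the 2 farthest libraries -0.72 and -0.67. Foragers of day 7 had r = -0.47 (rho = -0.48, adjusted permutation p = 0.0328 and 0.0368), with -0.45 without the 2 farthest libraries and -0.30 within colonies. Foragers of day 26 had r = -0.48 (adjusted permutation p = 0.0335), which rested on the 2 farthest libraries, as r was 0.05 without them and rho was -0.19 (0.476).

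E75, a nuclear receptor gene that hormone treatment induces in insects, was related to Jhe in nurses of day 26 (r = -0.60, rho = -0.48, adjusted permutation p = 0.00458 and 0.0292) and in foragers of day 7 (r = -0.63, rho = -0.67, 0.00376 and 0.00216). These were -0.54 and -0.58 without the 2 farthest libraries, and -0.62 and -0.51 within colonies. No relation passed in nurses of day 7 (-0.10, adjusted permutation p = 0.704) or foragers of day 26 (-0.19, 0.445). E75 had few counts, with medians of 3.36 CPM in nurses of day 7 and 4.71 in nurses of day 26. Its medians in foragers were 4.95 CPM on day 7, with a lowest library of 0, and 8.39 CPM on day 26. Counting error therefore weighs more on E75 than on Jhe, and its part in which relations passed was not tested. Hbg3, the alpha-glucosidase gene of forager glands, was negatively related in nurses of day 7 (r = -0.54, rho = -0.51, adjusted permutation p = 0.0156 and 0.0292) and of day 26 (r = -0.67, rho = -0.69, 0.000925 and 0.00092). In foragers of day 7 the sign was positive (r = 0.61, rho = 0.49, adjusted permutation p = 0.00477 and 0.0358), and in foragers of day 26 r was -0.05 (0.831). Where the Hbg3 relation passed, r without the 2 farthest libraries was -0.50, -0.63 and 0.45 in that order, and within colonies -0.62, -0.64 and 0.74. Whether these values differ between the roles was not tested. Over the 20 relations of Jhe, 16 passed by r and 14 by rho.

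Other genes most like Jhe over libraries were Hex70a, a hexamerin storage protein gene (r = 0.84), and LOC725380 (0.84), LOC727522 (0.84), LOC724175 (0.82), LOC413697 (0.82), LOC410308 (0.82), LOC724838 (0.81), LOC551197 (0.81) and LOC552024 (0.81). All of these were lower in foragers by edgeR, from a log2 difference of -0.54 ± 0.06 for LOC410308 to -4.39 ± 0.36 for LOC727522. Over all genes tested, 14.8% were called lower. These genes were picked by r over libraries of both roles, so a role difference like that of Jhe is built into the choice. Of the 10 most like genes by r, 9 were also among the first 10 by rho, and 6 were among the first 10 within groups. The list within groups added A4 (0.80), LOC552086 (0.78), LOC410167 (0.77) and LOC409150 (0.77). Next to Kr-h1, the most opposite genes were LOC725165 (-0.78), LOC100577026 (-0.76), LOC409243 (-0.72) and LOC410170 (-0.72). In all, 366 genes had r above 0.5 over libraries, 162 had it within groups, and 166 had r below -0.5 over libraries.

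**Figure D4:**
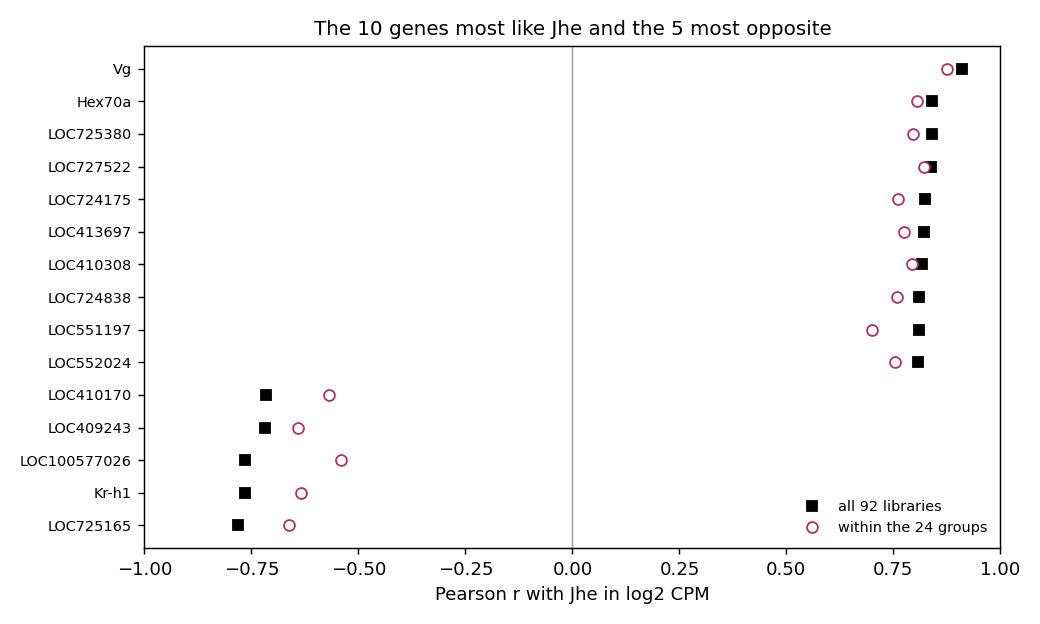
Pearson's r with Jhe in log2 CPM (x axis) for the 10 most like and 5 most opposite of 6746 genes (y axis), over all 92 libraries (black squares) and after subtraction of the 24 group means (open circles). Vg is highest by both measures, at 0.91 and 0.87, and Kr-h1 has -0.77 and -0.63.

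The rest of the hormone pathway was matched to gene names in the table. For synthesis, 2 of 16 names were found, and neither had enough counts to be tested: LOC724216, listed as a synonym of Jhamt, the methyltransferase of a late step, had 4.58 CPM in nurses and 5.25 in foragers, and LOC551179, listed as Cyp15a1, the epoxidase, had 1.73 and 2.98 CPM. For breakdown, Jhe was the single name found of 7. Of the carriers, 4 of 5 found were tested and 4 were lower in foragers, as 14.8% of all genes tested were. Their median log2 difference was -2.41, against 0.01 over all genes. They were Hex110 (-4.28 ± 0.43), Hex70a (-3.56 ± 0.35) and Hex70c (-1.27 ± 0.20), which are hexamerins, and the hormone-binding protein gene JHBP-1 (-0.40 ± 0.12, edgeR adjusted p = 0.00835). Of the response genes, 2 of 6 found were tested and both rose in foragers, as 15.2% of all genes did, Kr-h1 by 1.18 ± 0.16 and E75 by 0.72 ± 0.16. Both were also higher on day 26, as 13.7% of all genes were, by 0.53 ± 0.16 and 0.77 ± 0.16. Jhe did not pass between days, and whether its day difference differs from theirs was not tested. The others, Br-c, E74, Ecr and Usp, had too few counts. Among peptide and insulin genes, the corazonin receptor gene Crzr was higher in foragers (0.94 ± 0.15) and the insulin-like peptide gene ILP-2 did not pass (-0.16 ± 0.08, edgeR adjusted p = 0.101). Akhr, Crz and InR-2 had too few counts.

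Genes of several tissues moved with role, and their part in the Jhe difference was not tested. Of 8 fat body names 7 were found, and all 6 tested were lower in foragers, as 14.8% of all genes tested were. They were Vg, Vhdl, Tsf1 and the 3 tested hexamerins. The 7 genes found had a summed level of 855 to 21076 CPM in nurses (median 5139) and 777 to 10389 CPM in foragers (median 1565). No fat body gene found was at 0 in all libraries. All 5 head gland genes (Mrjp1 to Mrjp5) and all 4 venom gland genes were lower in foragers. The 3 eye genes and the 3 nerve genes tested were higher in foragers, as 15.2% of all genes were, and 1 of 3 muscle genes was lower.

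Est-6, named after the Drosophila carboxylesterase esterase 6, is the next gene to Jhe in the reference annotation Amel_HAv3.1 and the single other gene of the esterase list with enough counts. AChE-2, NLG-3, NLG-4 and NLG-5 of that list had too few. Est-6 had 22.8 ± 16.0 CPM in nurses of day 7 (SD, n = 22), 1.56 ± 2.15 in nurses of day 26 (n = 24), 1.96 ± 2.76 in foragers of day 7 (n = 22) and 0.817 ± 1.86 in foragers of day 26 (n = 24), with at least 1 library at 0 counts in each set. It was thus high in young nurses and low elsewhere, whereas Jhe was also high in older nurses. The log2 difference between Jhe and Est-6 was 1.28 higher on day 26 than on day 7 (permutation within colony and role, adjusted p = 2e-05, 12 of 12 pairings). With a prior count of 0.5 in place of 2 it was 1.98 higher (adjusted permutation p = 2e-05), so its size depended on the prior count. Between roles the log2 difference between Jhe and Est-6 was 0.23 higher in foragers (adjusted permutation p = 0.311), but 0.89 with a prior count of 0.5 (0.00418). The role difference of Est-6 could not be fitted, since all libraries of some groups had 0 counts, and its r with Jhe was 0.66 over libraries and 0.53 within groups.

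On the other side of Jhe, LOC100577253 overlaps it in the reference annotation. The labels do not say whether counting used the strand, so how reads of the shared stretch were counted is not known. Reads entered as ambiguous made up 0.013% of all reads on average, and the genes they came from are not given. LOC100577253 did not follow Jhe: its role difference was 0.13 ± 0.06 (edgeR adjusted p = 0.0588) and its r with Jhe was -0.21. The next genes outward were LOC726175, lower in foragers by a log2 difference of -0.22 ± 0.06 (edgeR adjusted p = 0.00213), LOC726158 (0.18 ± 0.10, adjusted p = 0.181) and, beyond Est-6, LOC726252 (0.12 ± 0.11, adjusted p = 0.466). These neighbours other than Est-6 had role differences between -0.22 and 0.18.

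The role difference of Jhe kept its sign and its call in all 25 alternative settings of scaling, test, filter, libraries, colonies and covariates. It ranged from -1.70 without the libraries numbered 3 to -1.09 without those numbered 1, with a highest adjusted p of 0.00146 with the unaligned share as a covariate.

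**Figure D5:**
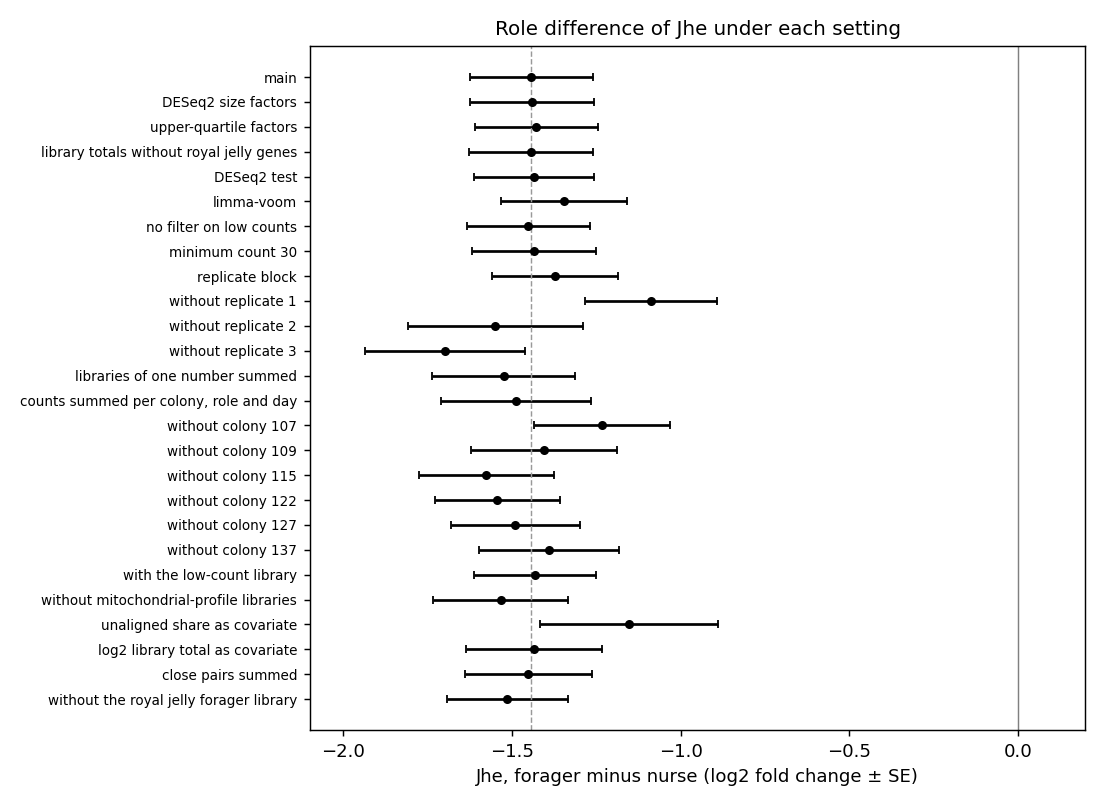
Fitted log2 difference of Jhe between foragers and nurses with its SE (x axis) under the reported fit and 25 alternatives (y axis), where the dashed line marks the reported -1.44. All points lie below 0, between -1.70 and -1.09.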

How the data were processed

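The deposited values are whole-number counts of reads per gene, without normalization. Per the labels, total RNA of whole bees went into TagSeq libraries of the submitters' own design, prepared in a single round. TagSeq reads a stretch near the transcript's 3' end. FastQC, HISAT2, SAMtools and DESeq2 were used, per the submitters' processing notes. Their versions, the counter, the build and the annotation were not given in the sources used here, and coordinates are therefore left out. The table's 5 entries for unassigned reads stayed out of totals and tests. They include reads of no feature (16.1% on average), ambiguous reads (0.013%), reads not aligned (67.7%) and reads aligned to several places (3.36%).

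The labels list 96 samples, and 93 have a column. The negative control and replicates 2 and 3 of colony 127 nurses of day 7 were not analysed here. Replicate 1 of colony 107 foragers of day 7, with 81736 counts, was left out. Libraries marked #2 share a replicate number with another library and were counted as samples of their own.

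The whole table was fitted with edgeR 4.0.16 in R 4.3.3 (TMM factors, filterByExpr at a minimum count of 10 over role and day, glmQLFit with legacy=FALSE and robust=TRUE, 1 mean per group, 68 residual degrees of freedom). P-values were adjusted by Benjamini-Hochberg over 6753 genes, with a threshold of 0.05. The fit was tested on simulated data, where the role test recovered 94% of 200 genes changed 1.5-fold and 100% at 2-fold. Jhe varied more between libraries of a group than most genes, with a biological coefficient of variation of 0.548 against a median of 0.177. Log2 CPM for permutations and correlations used a prior count of 2, and permutations used 100000 resamples. DESeq2 1.42.0 and limma 3.58.1 (voom) were alternatives. Alternatives that sum close pairs or leave out the forager library highest in royal jelly transcripts or single libraries were added after seeing the data.

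Genes named were Jhe, 6 partners (Vg, Est-6, Mrjp1, Hbg3, Kr-h1, E75), the 10 genes most like Jhe, the 5 most opposite and the 10 most like within groups, all members found of the pathway lists, and neighbours in the reference annotation. The gene and the lists were chosen with earlier results of these data known. LOC genes are printed by identifier.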

Additional observations from a re-analysis of the deposited data

Results flagged for a closer look

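Among the 21 groups of 4 libraries, 2 held a library far from the other 3 in Jhe level, and chance flags about 1 in 20 groups. Replicate 1 of colony 107 nurses of day 7 was highest, at 366 CPM, against 110 to 124 CPM in the other libraries of its group. Replicate 2 of colony 137 foragers of day 26 was lowest, at 27.6 CPM, against 62.3 to 69.0 CPM in the others, from 32 counts.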

How the results depend on the processing

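The role difference of Jhe over both days and that of day 7 and of colony 107 kept direction and call in all alternatives run. Without replicates 1, 2 or 3 (the labels' numbers) the role difference ranged from -1.70 to -1.09 over both days, from -1.89 to -1.56 on day 7 and from -1.54 to -0.68 on day 26, and the day difference from -0.88 to -0.32 in nurses and from -0.44 to 0.053 in foragers. In the same way nurses of day 26 against foragers of day 7 ranged from 0.69 to 1.56, colony 109 from -2.02 to -1.44 and colony 137 from -1.88 to -1.44, the permuted day difference from -0.42 (which passed, without replicate 1) to -0.12, the Jhe to Mrjp1 day difference from -0.96 to -0.48, and the relations passing by rho from 6 to 13. The relation with E75 in nurses of day 7 ranged from -0.30 to 0.26 without each number, and that with Hbg3 in foragers of day 26 from -0.35 to 0.23. With the unaligned share as a covariate, the calls of day 26 (-0.91), colony 109 (-1.31) and colony 137 (-1.38) were lost and the day difference in foragers turned to 0.029. It turned to 0.040 without the libraries of departing mitochondrial counts. Colony 109 also lost its call with the log2 library total as a covariate (-1.62), and colony 137 with libraries of 1 number summed (-1.63). Without replicate 1, 2 or 3, colony 109 lost its call each time (edgeR adjusted p = 0.0534, 0.155 and 0.123). A prior count of 0.5 brought the Jhe to Est-6 role difference past the threshold (0.89). By r, no relation with Vg lost its call, while relations with the other genes lost theirs 14 times over 5 alternatives. By rho, the relation with Vg missed the threshold in foragers of day 26 without replicate 2 (adjusted permutation p = 0.0509) and in foragers of day 7 without replicate 3 (0.0533). The causes were not tested. With the replicate number as a replicate block the role difference was -1.37 (adjusted p = 1.68e-08), and no call of Jhe changed. Libraries of the same number did not deviate together (mean r of 0.00 over 201 pairs), so the numbers were not taken as pairs. Leaving out replicate 1 left no colony 127 nurses of day 7. Colony 127 therefore dropped out of the role difference on day 7 and the day difference in nurses. It also dropped out of the interactions, the colony tests and nurses of day 26 against foragers of day 7. Its other groups stayed in the remaining role and day differences, and those over both days or both roles covered 11 pairings. Counts summed per group allowed no colony interactions.

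Counts of genes called moved more than 1.5 times in places: 2031 to 816 for role and 1196 to 240 for role on day 26 with the unaligned share, 1764 to 822 for day, 1366 to 754 for role on day 7, 907 to 389 for day in nurses, 1274 to 436 for day in foragers and 1203 to 281 for colony without replicate 2, 56 to between 11 and 93 for the interaction, 0 to 5 for colony by role and 3 to between 0 and 73 for colony by day. Depth limits Jhe at 16 counts to a relative error of 25.0%, and 3 counts equal 15.2 CPM in the smallest library. These limits cover counting error only.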

Other observations

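Replicate 1 of colony 107 foragers of day 7, which was left out for its total of 81736 counts, held 6 counts of Jhe. With this library included, the role difference of Jhe was -1.43 ± 0.18 on the log2 scale (edgeR adjusted p = 1.83e-09).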
